A study of Capra hircus with 7 samples.

Results

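The 2 control conditions of a goat mammary gland cell study, labelled c3NC and c5NC, were compared with each other by RNA-seq. The cells came from the mammary gland of Lanshan dairy goats (Capra hircus) and were grown in 3D culture. c3NC has 2 libraries, called replicate 1 and replicate 2, and c5NC has 1 library, numbered 2, so 3 of the 7 libraries of the series enter the comparison. The other 4 libraries are 2 labelled cKDmix and 2 labelled cRNA28250; the design names knockdown and virus-delivered overexpression of a circular RNA, cirRNA28250. The labels do not spell out 3NC or 5NC and do not say what either control culture received. They give no animal, age, passage or culture date, and do not say whether replicates are separate cultures, so the p-values given here speak for the spread of these particular libraries, which may be technical. Values are FPKM, fragments counted per gene and scaled to gene length and library size, a scale on which levels can be compared between genes. Genes were taken by 1 rule, an FPKM of at least 1 in 2 or more of the 3 control libraries, which 10928 of the 17374 genes in the table met.

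Mammary tissue is built from an inner luminal epithelium that makes milk, an outer basal or myoepithelial layer that contracts to eject it, and a stroma of fibroblasts, adipocytes and vessels that lays down the matrix. Contractile cells, whether myoepithelial, smooth muscle or myofibroblast, share a set of actin, myosin regulator and tropomyosin genes that rises and falls with serum response factor and its partners. Epithelial cells are held together by desmosomes and tight junctions and express keratins, whereas fibroblasts secrete collagens and small proteoglycans and fat cell precursors are marked by the receptor PPARG.

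Stromal markers were abundant in all 3 libraries. Vimentin (VIM), the intermediate filament of mesenchymal cells, stood at 5234 and 5846 FPKM in c3NC and 7644 in c5NC, and decorin (DCN), a collagen-binding proteoglycan, at 6720, 7270 and 5264 FPKM. The luminal keratin genes KRT8 and KRT18 were at or below 0.13 FPKM in each library and EPCAM was listed at 0 in each. The summed FPKM of the 21 measured luminal genes was 29.7 and 33.2 in c3NC and 53.9 in c5NC. Between 10896 and 11045 genes reached 1 FPKM per library. The 2 c3NC libraries differed from each other with an SD of 0.300 in log2(FPKM + 1) over the genes tested, and from c5NC with SDs of 0.705 and 0.673. Among the manipulated libraries the cKDmix pair had an SD of 0.298 and the cRNA28250 pair 0.577, so cRNA28250 replicates 1 and 2 stand further apart than the other pairs.

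The question addressed was which groups of genes separate 2 cultures that both serve as controls. Differences on log2(FPKM + 1), c3NC minus c5NC, were tested with limma and Benjamini-Hochberg adjustment over the 10928 genes, with the spread taken from the 3 groups that have 2 libraries. The lone c5NC library was thus assumed to vary like the others. At an adjusted p under 0.05, 657 genes (6.01%) were called, of which 348 (3.18%) were higher in c3NC and 309 (2.83%) were higher in c5NC. The median difference of all tested genes was -0.05. These shares and this median are to be set beside the counts and medians of each list below. A gene not called is not shown to be equal in the 2 controls. Which library was left out changed the number of calls. It was 168 without c3NC replicate 1, 193 without c3NC replicate 2, 189 without either cKDmix library, and 1865 or 1863 without cRNA28250 replicate 1 or 2. In description only, both c3NC libraries lay at least 2-fold above c5NC on that scale for 462 tested genes (4.23%), and c5NC lay at least 2-fold above both for 372 (3.40%). Over all 17374 genes in the table these counts were 462 (2.66%) and 555 (3.19%). Lack of overlap alone is common here, since c5NC lay outside the range of the 2 c3NC libraries for 8928 tested genes (81.7%). A fit to the 3 control libraries alone, in which the c3NC pair gives the whole spread, called 1014 genes (9.28%) higher in c3NC and 997 (9.12%) higher in c5NC. A gene present only in c5NC could not meet the entry rule. With 1 FPKM in at least 1 control library required instead, 11607 genes were tested. Of these, 368 (3.17%) were called higher in c3NC and 505 (4.35%) higher in c5NC. Genes under 1 FPKM in both c3NC libraries entered that wider test through c5NC alone, which fixed their direction. They are therefore given below by FPKM only, without a test. In reverse, 312 genes under 1 FPKM in c5NC met the entry rule through the c3NC libraries alone. Their direction was fixed as well, so their p-values and calls add nothing to their FPKM. Among those named below are TGFBI, VAT1L, PTGS1, TMEM119, PLAC9, MMP3, CFB, RSPO1, HAPLN3, INHBB, COL11A1, FBLN5 and HERC6. Of 102 called genes that the naming rule chose, 39 were called under all 15 alternatives to the test (other pseudocount, filters, scalings and variance models, the control libraries alone, a replicate block and 6 library omissions). For the others given here the omitted libraries that ended the call are given. Other settings ended calls too, and these losses are mostly given as totals in the last section. For example, IGFBP2, AGRN and IL1A were called under 7, 7 and 6 of the 15.

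**Figure D1:**
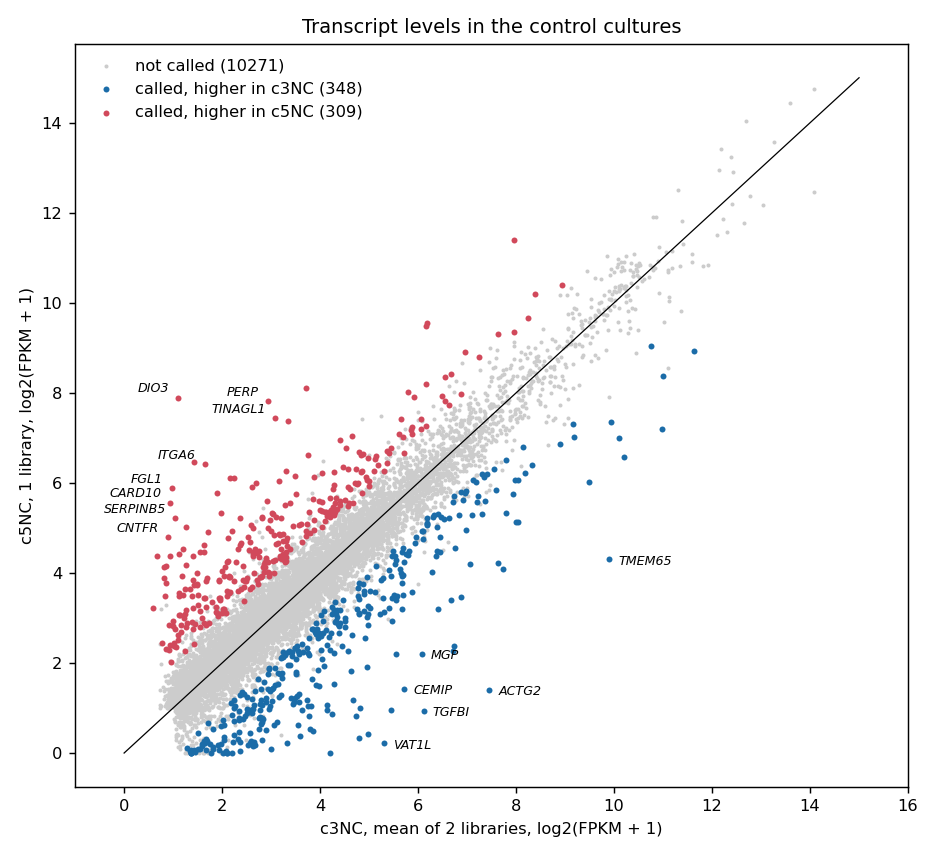
Level of each tested gene in c5NC against its mean in c3NC, both axes as log2(FPKM + 1), with called genes in colour and some of the named genes labelled. The 348 genes called higher in c3NC and the 309 called higher in c5NC lie on either side of the diagonal, with TMEM65 and ACTG2 far on the c3NC side and DIO3 far on the c5NC side.

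Many contractile genes were higher in c3NC. Of 30 listed genes 21 were tested, 10 were called higher in c3NC and 0 higher in c5NC, with a median difference of 1.19 over the tested members. The shares over all tested genes were 3.18% and 2.83%. Smooth muscle gamma-actin (ACTG2) measured 161 and 189 FPKM in c3NC and 1.64 in c5NC, a log2 difference of 6.05 ± 0.44 (SE; limma adjusted p = 0.000864). Myosin light chain kinase (MYLK), which switches on myosin by phosphorylating its light chain, measured 195 and 228 FPKM against 15.9, a log2 difference of 3.65 ± 0.27 (limma adjusted p = 0.000864). Smooth muscle alpha-actin (ACTA2), the usual marker of myofibroblasts and myoepithelium, measured 623 and 834 FPKM against 63.5, a log2 difference of 3.48 ± 0.31 (limma adjusted p = 0.00144). For these 3 genes c5NC was the lowest of the 7 libraries, as it was for all 10 called members. ACTA2 and ACTG2 are near-identical in coding sequence, so reads could have been split between them by the counting.

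Transgelin (TAGLN), an actin-binding protein of contractile cells, stood at 893 and 1073 FPKM in c3NC and 162 in c5NC, with a log2 difference of 2.59 ± 0.33 (limma adjusted p = 0.00511). The regulatory light chain MYL9 measured 390 and 575 FPKM against 115, a log2 difference of 2.03 ± 0.38 (limma adjusted p = 0.0235). The actin cross-linker ACTN1 measured 170 and 216 FPKM against 56.3, a log2 difference of 1.75 ± 0.27 (limma adjusted p = 0.0111). The c5NC value lay outside the c3NC range for each of these genes, as it did for 81.7% of all tested genes. The remaining called members were the tropomyosins TPM1 and TPM2, the actin nucleator LMOD1 and the scaffold PDLIM7, with log2 differences between 1.23 and 2.15, and the tropomyosins are again a family of similar sequence. These 4, named after their values were seen, lost their calls with any 1 c3NC or cKDmix library left out (highest limma adjusted p 0.137 to 0.247).

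Of the 21 tested contractile genes 11 were not called. Caldesmon (CALD1) measured 134 and 178 FPKM against 111, smooth muscle myosin heavy chain (MYH11) 13.98 and 17.1 against 12.7, and smoothelin (SMTN) 28.5 and 25.5 against 22.9. Wider apart, yet not called, were the integrin subunit ITGA8 at 22.7 and 44.4 FPKM against 13.3, the actin-associated SYNPO2 at 8.27 and 17.6 against 5.52, and PGM5, a protein of muscle adherens junctions, at 5.56 and 9.34 against 16.8. Calponin (CNN1), a marker of mature smooth muscle, was at 0.56 and 1.99 FPKM in c3NC and 0.10 in c5NC, and the coactivator MYOCD at 0.30, 1.23 and 0.09, so both missed the entry rule. In the opposite direction, KCNMB1, a subunit of the smooth muscle potassium channel, measured 0.36 and 0.77 FPKM in c3NC and 13.0 in c5NC. CASQ2, a calcium-binding protein of muscle, measured 0.98, 0.81 and 8.80 FPKM. These genes also missed the entry rule.

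Serum response factor itself (SRF) measured 9.85 and 7.19 FPKM against 8.49, and its coactivator MKL1 13.5 and 15.8 against 13.4. Of 19 tested genes of actin dynamics and YAP or SRF signalling, 1 was called higher in c3NC and 0 higher in c5NC, in all near the share of all genes. The called one was the focal adhesion coactivator TGFB1I1, at 45.6 and 39.8 FPKM against 14.3. CTGF, a widely used YAP target, measured 151 and 208 against 60.8 FPKM, and CYR61, another, 488 and 805 against 539, neither of them called. In the contractile list, 4 members kept a call without c3NC replicate 1, 3 without c3NC replicate 2, 5 without either cKDmix library, and 6 without the entry rule. ACTG2, MYLK and ACTA2 were called under all 15 alternatives. TAGLN lost its call without c3NC replicate 2 (limma adjusted p = 0.0614), ACTN1 without either c3NC library (highest limma adjusted p over the alternatives 0.0885), and MYL9 and TGFB1I1 with any 1 c3NC or cKDmix library left out (highest 0.142 and 0.0978).

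Several epithelial genes were higher in c5NC, while others were under 1 FPKM in every control library. Of 34 junction and polarity genes 22 were under 1 FPKM in all 3 control libraries. Of the 7 tested, 0 were called higher in c3NC and 3 higher in c5NC. The summed FPKM of the list was 63.8 and 73.0 in c3NC and 626 in c5NC, and 4 of its members were listed at 0 in all controls. In a bulk library, fewer cells of a type and less RNA per cell cannot be told apart.

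PERP, a desmosome-associated membrane protein, measured 3.38 and 12.4 FPKM in c3NC and 225 in c5NC, a log2 difference of -4.88 ± 0.57 (limma adjusted p = 0.00361). Claudin 1 (CLDN1), a tight junction strand protein, measured 4.84 and 6.08 FPKM against 62.6, a log2 difference of -3.31 ± 0.43 (limma adjusted p = 0.00571). Desmoplakin (DSP), which ties desmosomes to keratin filaments, measured 2.91 and 3.89 FPKM against 26.5, a log2 difference of -2.65 ± 0.29 (limma adjusted p = 0.00302). These 3 genes were called under all 15 alternatives, and c5NC was the highest of the 7 libraries for each.

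Under 1 FPKM in both c3NC libraries were CLCA2, a chloride channel regulator of stratified and basal epithelium, and plakophilin 1 (PKP1), a desmosome plaque protein. CLCA2 measured 0.13 and 0.51 FPKM in c3NC and 150 in c5NC. PKP1 measured 0.32 and 0.91 FPKM against 55.8. The epithelial transcription factor EHF stood at 0.32 and 0.27 FPKM in c3NC and 44.6 in c5NC. These genes missed the entry rule and are given without a test. Plakoglobin (JUP), shared by desmosomes and adherens junctions, measured 44.0 and 37.7 FPKM against 90.4 and was not called.

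The basal and myoepithelial list had calls in both directions. Of its 21 measured members 11 were under 1 FPKM in all 3 control libraries, and 2 were listed at 0 in each. Of 7 tested members 2 were called higher in c3NC, and these were ACTA2 and MYLK, already given as contractile genes. The 5 called higher in c5NC were the laminin receptor subunit ITGA6, the transcription factor SNAI2, the desmosomal cadherin DSC3, the receptor EGFR and the Notch ligand JAG1. For 3 of these 5, and not for DSC3 or EGFR, c5NC was the highest of the 7 libraries. ITGA6, which anchors basal cells to the basement membrane, measured 1.33 and 3.21 FPKM in c3NC and 84.5 in c5NC, a log2 difference of -4.77 ± 0.36 (limma adjusted p = 0.000864). SNAI2 measured 27.4 and 24.8 FPKM against 61.5, EGFR 7.42 and 6.94 against 18.2, JAG1 3.28 and 3.29 against 10.2, and DSC3 0.73 and 1.38 against 4.48. ITGA6 was called under all 15 alternatives, while SNAI2, DSC3, EGFR and JAG1 lost their calls with any 1 c3NC or cKDmix library left out, with highest limma adjusted p between 0.141 and 0.198.

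The laminin chain LAMA3 (0.38 and 0.34 against 13.2 FPKM) and the basal keratin KRT14 (0.00 and 0.04 against 4.22 FPKM) were also higher in value in c5NC. Both missed the entry rule. Of 21 luminal genes 2 were tested, with 0 called in either direction. Among those that missed the entry rule, CD24 (0.00 and 0.00 against 15.5 FPKM) and KRT19 (0.23 and 0.32 against 5.53) were higher in value in c5NC. So were KRT7 (0.00 and 0.25 against 3.81) and PROM1 (0.17 and 0.15 against 1.19). CD24 stood at 26.2 and 19.6 FPKM in cRNA28250, above c5NC. Keratins are a family of similar sequence, so single values in this range are uncertain. The estrogen receptor gene ESR1 measured 19.1 and 22.5 FPKM against 22.3, without a call. SPP1, a secreted phosphoprotein also found in milk, was the single tested gene of 4 measured milk protein genes and was higher in c3NC, at 56.2 and 38.2 FPKM against 10.2 (limma adjusted p = 0.00569).

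**Figure D2:**
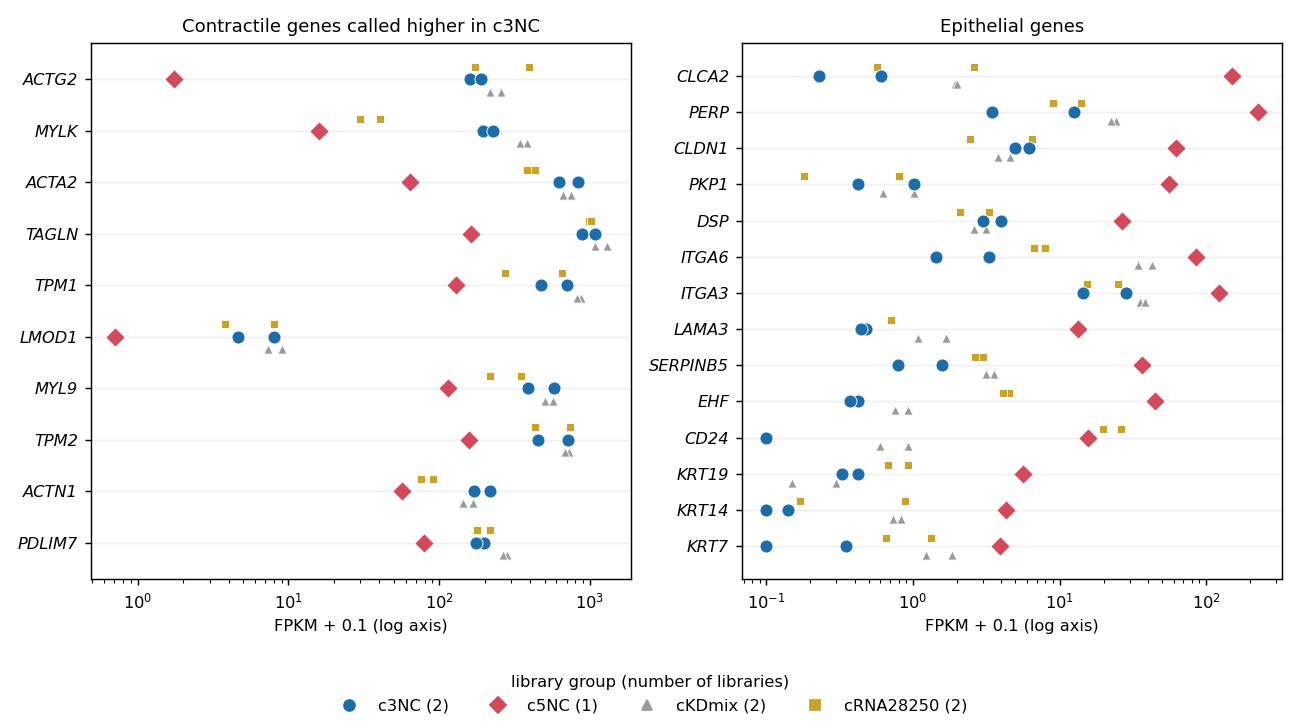
FPKM + 0.1 on a logarithmic axis for the 10 contractile genes called higher in c3NC (left) and for epithelial genes (right), 1 marker per library with shape and colour for its group; cKDmix and cRNA28250 markers are offset vertically for legibility. The c5NC point lies left of every other library for ACTG2, MYLK, ACTA2 and TAGLN, and right of every other library for PERP, CLDN1, DSP and ITGA6.

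Among the genes with the largest differences higher in c5NC were 4 of varied function that belong to none of the epithelial lists. SERPINB5, a serpin of basal mammary epithelium, measured 0.69 and 1.48 FPKM in c3NC and 36.3 in c5NC (limma adjusted p = 0.000864). TINAGL1, a secreted protein of basement membranes, measured 5.94 and 9.16 against 172 FPKM (limma adjusted p = 0.000864), and CARD10, a scaffold of NF-kB signalling in non-immune cells, 0.51 and 1.44 against 46.2 FPKM (limma adjusted p = 0.00145). The hyaluronan synthase HAS3, typical of epidermis, measured 7.65 and 10.9 against 165 FPKM (limma adjusted p = 0.00233). All 4 were called under all 15 alternatives. Of 5 tested genes of cornified keratinocytes, 0 were called higher in c5NC and 1, LY6D, was called higher in c3NC (26.4 and 18.2 against 7.0 FPKM), a call lost with any 1 c3NC or cKDmix library left out (highest limma adjusted p 0.225).

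Adipogenic genes were called in both directions. Of 32 measured genes 17 were tested, 1 was called in each direction, and the median difference was 0.04. Over all tested genes 3.18% were called higher in c3NC and 2.83% higher in c5NC. At an unadjusted limma p under 0.05 there were 7 of the 17, against 2058 of all 10928 genes tested. PPARG, the nuclear receptor that drives fat cell formation, was under the entry rule at 0.50 and 0.39 FPKM in c3NC and stood at 40.1 in c5NC. ADIRF, named for its rise in fat cells, measured 0.81 and 0.39 FPKM against 28.9. ZNF423, a factor of fat cell commitment, measured 0.01 and 0.03 FPKM against 2.82. These genes missed the entry rule and are given without a test.

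For PPARG, c5NC was above the 4 manipulated libraries, which lay between 3.75 and 7.57 FPKM. For ADIRF they lay between 6.88 and 33.7 FPKM, so c5NC was inside their range. The acyltransferase AGPAT2, which makes phosphatidic acid for triglyceride synthesis, was higher in c5NC at 20.2 and 16.3 against 43.2 FPKM, a call lost with any 1 c3NC or cKDmix library left out (highest limma adjusted p 0.21). In the other direction, the retinol carrier RBP4, which fat tissue also secretes, measured 250 and 260 FPKM in c3NC and 33.9 in c5NC, a log2 difference of 2.87 ± 0.25 (limma adjusted p = 0.00124), and held under all 15 alternatives. Genes of filled fat cells were not called. The lipid droplet coat PLIN2 measured 316 and 394 FPKM against 373, fatty acid synthase (FASN) 3.13 and 2.64 against 2.76, and the fatty acid transporter CD36 62.9 and 71.6 against 37.4. CEBPB and CEBPD, which act before PPARG in fat cell formation, measured 147 and 132 against 95.7 FPKM and 813 and 807 against 921 FPKM, without a call.

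In the 6 matrix lists together 106 genes were tested, of which 22 were called higher in c3NC, 8 higher in c5NC and 76 in neither direction. Over all tested genes the shares were 3.18% and 2.83%. The 22 include TGFBI, MMP3, HAPLN3, COL11A1 and FBLN5, which met the entry rule through the c3NC libraries alone, with their direction fixed. Matrix genes under 1 FPKM in both c3NC libraries, such as POSTN and PODN, could not enter. The balance of 22 and 8 is thus partly set by the entry rule. Of 15 tested matricellular genes, which encode secreted proteins that tune cell contact with the matrix, 7 were called higher in c3NC and 0 higher in c5NC, with a median difference of 1.27. TGFBI, a collagen-binding protein induced by TGF-beta, measured 47.3 and 98.4 FPKM in c3NC and 0.91 in c5NC, a log2 difference of 5.18 ± 0.45. Matrix Gla protein (MGP), an inhibitor of calcification, measured 82.9 and 53.3 FPKM against 3.59, a log2 difference of 3.88 ± 0.33 (limma adjusted p = 0.00124). Dermatopontin (DPT), which assists collagen fibril assembly, measured 87.9 and 80.4 FPKM against 8.12, a log2 difference of 3.22 ± 0.26 (limma adjusted p = 0.00116).

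MGP and DPT held under all 15 alternatives. TGFBI met the entry rule through the c3NC libraries alone, which fixed its direction. NOV measured 35.02 and 60.6 FPKM against 3.56, THBS3 7.95 and 6.58 against 1.72, and WISP1 15.6 and 12.4 against 5.40, and these 3 calls were lost with any 1 c3NC or cKDmix library left out (highest limma adjusted p 0.111, 0.0903 and 0.184). The list kept 3 calls under each of those omissions, that of TGFBI among them. The abundant members fibronectin (FN1, 2300 and 2133 against 1061 FPKM), SPARC (3263 and 4011 against 1814) and THBS1 (1070 and 1440 against 641) were lower in c5NC in value but not called. Periostin (POSTN), which missed the entry rule, went the other way, at 0.08 and 0.06 FPKM in c3NC and 4.37 in c5NC.

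Of 13 tested proteoglycan and hyaluronan-linked genes 4 were called higher in c3NC and 0 higher in c5NC, with a median difference of 1.30. Versican (VCAN), the large hyaluronan-binding proteoglycan, measured 155 and 157 FPKM in c3NC and 38.7 in c5NC (limma adjusted p = 0.0239). The link protein HAPLN3 measured 3.71 and 3.81 FPKM against 0.33, ECM2 10.2 and 14.8 against 1.25 and PRELP 9.92 and 10.8 against 2.46. HAPLN3 met the entry rule through the c3NC libraries alone, which fixed its direction. ECM2 lost its call without c3NC replicate 2 or either cKDmix library, and VCAN and PRELP with any 1 c3NC or cKDmix library left out (highest limma adjusted p 0.0681, 0.12 and 0.125). Lumican (LUM) measured 2031 and 2137 FPKM against 757 and biglycan (BGN) 1484 and 1292 against 930, neither of them called. PODN, which missed the entry rule, was higher in value in c5NC, at 0.21 and 0.16 against 2.30 FPKM.

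Of 16 tested genes in the list of fibrillar and fibril-associated collagens 3 were called higher in c3NC and 0 higher in c5NC. The called chains were COL8A1 (181 and 383 against 33.8 FPKM), COL5A3 (14.5 and 7.54 against 1.39) and COL11A1 (4.78 and 16.3 against 0.17). COL8A1 is a network-forming chain, neither fibrillar nor fibril-associated. COL11A1 met the entry rule through the c3NC libraries alone, which fixed its direction. With c3NC replicate 2 or either cKDmix library left out 0 of the 16 were called, and without c3NC replicate 1 only COL11A1 kept its call. COL1A1, the main chain of type I collagen, measured 2299 and 2074 FPKM in c3NC and 377 in c5NC, a log2 difference of 2.53 ± 0.64 (limma adjusted p = 0.0618). Its values in the manipulated libraries were 689 and 739 FPKM in cKDmix and 1591 and 458 in cRNA28250. Those last 2 replicates enter the pooled error. The number of chains called higher in c3NC changed with the processing. It was 10 of the 16 with the 3 control libraries alone, 0 under quantile normalization and 0 without the entry rule. COL1A2 measured 2543 and 2739 FPKM against 898, and COL3A1 2193 and 2220 against 1652.

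Of 16 tested basement membrane genes 3 were called higher in c3NC and 2 higher in c5NC. SMOC2, a calcium-binding matrix protein, measured 205 and 189 FPKM in c3NC and 17.7 in c5NC, a log2 difference of 3.40 ± 0.26 (limma adjusted p = 0.000946). The laminin chain LAMA4 measured 33.8 and 50.5 FPKM against 8.31, and COL15A1 52.7 and 49.5 against 10.3. In the other direction the type IV collagen chain COL4A5 measured 0.76 and 1.11 FPKM in c3NC and 19.6 in c5NC, a log2 difference of -3.42 ± 0.38 (limma adjusted p = 0.00302), and agrin (AGRN) 4.67 and 4.86 against 26.8. The commoner type IV chains COL4A1 (299 and 252 against 82.1 FPKM) and COL4A2 (190 and 157 against 56.7) were not called. SMOC2 and COL4A5 held under all 15 alternatives, whereas LAMA4 lost its call without c3NC replicate 2 or either cKDmix library, and COL15A1 and AGRN with any 1 c3NC or cKDmix library left out (highest limma adjusted p 0.0729, 0.128 and 0.166).

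Of 22 tested elastic fibre and cross-linking genes 2 were called higher in c3NC and 4 higher in c5NC. The balance turned with the libraries in the fit, to 10 and 5 with the 3 control libraries alone and 9 and 5 without either cRNA28250 library. Fibulin 5 (FBLN5), an organiser of elastic fibres, measured 3.61 and 4.67 FPKM in c3NC and 0.71 in c5NC, and the collagen cross-linking enzyme LOXL2 103 and 109 against 22.5. Its relative lysyl oxidase (LOX) went the opposite way, at 152 and 259 against 635 FPKM, as did LOXL4 at 1.13 and 1.18 against 5.20. EFEMP1, a fibulin of basement membranes and elastic tissue, measured 4.90 and 5.17 FPKM against 32.6, a log2 difference of -2.48 ± 0.26 (limma adjusted p = 0.00238), and FBLN1 5.57 and 7.80 against 31.1. EFEMP1 held under all 15 alternatives. LOX and FBLN1 lost their calls without c3NC replicate 1 or either cKDmix library (highest limma adjusted p 0.184 and 0.0682), and FBLN5, LOXL2 and LOXL4 with any 1 c3NC or cKDmix library left out (highest 0.0897, 0.124 and 0.081).

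Among 25 tested matrix proteases and inhibitors 3 were called higher in c3NC and 2 higher in c5NC. With the 3 control libraries alone these counts were 11 and 3, and without either cRNA28250 library 9 and 3. Stromelysin 1 (MMP3) measured 31.2 and 22.9 FPKM in c3NC and 0.26 in c5NC, a log2 difference of 4.46 ± 0.51. The collagenase MMP1 measured 4.19 and 4.08 FPKM against 1.45 and the procollagen N-propeptidase ADAMTS2 101.28 and 94.9 against 36.3. Epilysin (MMP28), a protease of epithelia, measured 7.0 and 6.7 FPKM against 34.9, a log2 difference of -2.19 ± 0.25 (limma adjusted p = 0.00347), and the aggrecanase ADAMTS4 2.85 and 5.16 against 17.8. MMP3 met the entry rule through the c3NC libraries alone, which fixed its direction. MMP28 held under all 15 alternatives. The calls of MMP1 and ADAMTS2 were lost with any 1 c3NC or cKDmix library left out, that of ADAMTS4 without c3NC replicate 1 or either cKDmix library (highest limma adjusted p 0.206, 0.157 and 0.0963).

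**Figure D3:**
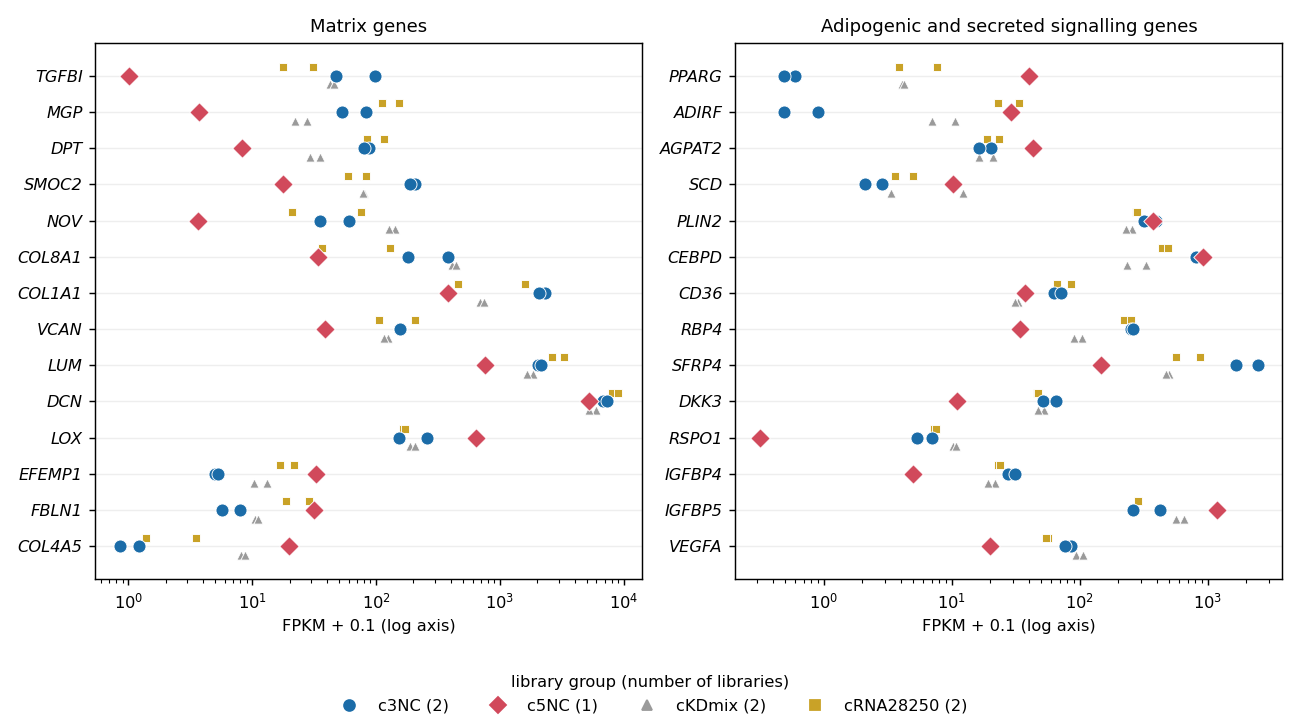
FPKM + 0.1 on a logarithmic axis for matrix genes (left) and for adipogenic and secreted signalling genes (right), 1 marker per library with shape and colour for its group; cKDmix and cRNA28250 markers are offset vertically for legibility. TGFBI, DPT and SMOC2 are lowest in c5NC, LOX and EFEMP1 are highest there, and PPARG is at 40.1 FPKM in c5NC against 0.50 and 0.39 in c3NC.

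Stromal marker genes overlapped with these lists. Of 19 tested fibroblast genes 4 were called higher in c3NC and 0 higher in c5NC, among them DPT, given above. The secreted Wnt antagonist SFRP4 measured 2448 and 1658 FPKM in c3NC and 145 in c5NC, a log2 difference of 3.78 ± 0.39 (limma adjusted p = 0.00238), and was called under all 15 alternatives. The surface protein THY1 measured 27.1 and 36.7 FPKM against 8.36, a call lost with any 1 c3NC or cKDmix library left out (highest limma adjusted p 0.126). PDGFRB, the receptor of fibroblasts and mural cells, measured 76.2 and 66.3 against 56.4 FPKM, and the mesenchymal factor TWIST1 12.9 and 14.4 against 13.7, neither of them called.

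Of 8 tested pericyte genes 2 were called higher in c3NC and 1 higher in c5NC. The potassium channel subunits KCNJ8 and ABCC9, which assemble into one channel of vascular mural cells, measured 81.2 and 73.3 against 15.2 FPKM and 17.7 and 15.7 against 4.29 FPKM. The endothelin receptor EDNRA was higher in c5NC, at 13.0 and 18.1 against 46.9 FPKM. KCNJ8 lost its call with any 1 c3NC or cKDmix library left out, ABCC9 without either c3NC library, and EDNRA without c3NC replicate 1 or either cKDmix library (highest limma adjusted p 0.0877, 0.0898 and 0.118). Of the endothelial list 3 of 10 members were tested, of the macrophage list 2 of 11 and of the lymphocyte list 1 of 8. None of these was called by limma, and at an unadjusted p under 0.05 there were 1, 0 and 0. PTPRC, the leukocyte common antigen, was listed at 0 in all 3 control libraries. The summed FPKM of the macrophage list was 224 and 187 in c3NC and 172 in c5NC, carried mainly by CD14.

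Calls among secreted signals fell in both directions. Of 19 tested Wnt genes 5 were called higher in c3NC and 1 higher in c5NC. Besides SFRP4 these included DKK3, a Dickkopf family protein, at 51.5 and 65.2 FPKM against 10.9 (limma adjusted p = 0.00227). R-spondin 1 (RSPO1), which potentiates Wnt receptors, was another, at 6.92 and 5.28 against 0.22. The ligand WNT5B was higher in c5NC at 30.7 and 36.1 against 76.1 FPKM. DKK3 held under all 15 alternatives, and the call of WNT5B was lost with any 1 c3NC or cKDmix library left out (highest limma adjusted p 0.188). RSPO1 met the entry rule through the c3NC libraries alone, which fixed its direction. Among Wnt genes that missed the entry rule, the Wnt-regulated factor LEF1 (0.80 and 0.81 against 5.22 FPKM) was higher in value in c5NC. So were the receptors FZD2 (0.58 and 0.69 against 3.49) and ROR1 (0.08 and 0.08 against 1.05).

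Of 13 tested genes of the insulin-like growth factor axis 2 were called higher in c3NC, 2 higher in c5NC and 9 in neither direction. The binding protein IGFBP4 measured 27.3 and 30.9 FPKM in c3NC and 4.89 in c5NC, a log2 difference of 2.35 ± 0.22 (limma adjusted p = 0.00167), and stanniocalcin 2 (STC2), which blocks the protease that cleaves IGFBP4, measured 18.97 and 14.7 against 1.08 (limma adjusted p = 0.00188). IGFBP5, a major binding protein of the involuting mammary gland, measured 260 and 427 against 1181 FPKM (limma adjusted p = 0.0266), and IGFBP2 0.65 and 1.83 against 10.7 (limma adjusted p = 0.0495). IGFBP4 and STC2 held under all 15 alternatives, and IGFBP5 and IGFBP2 lost their calls with any 1 c3NC or cKDmix library left out (highest limma adjusted p 0.198 and 0.228). The receptor IGF1R measured 7.02 and 6.53 against 7.29 FPKM and was not called.

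Of 21 tested growth factors and receptors 3 were called higher in c3NC and 2 higher in c5NC. VEGFA, the main angiogenic factor, measured 86.0 and 76.2 FPKM in c3NC and 19.7 in c5NC, a log2 difference of 1.98 ± 0.23 (limma adjusted p = 0.00335), and held under all 15 alternatives. VEGFC (40.7 and 59.6 against 15.02 FPKM) was also higher in c3NC, whereas MET, the receptor of hepatocyte growth factor (2.75 and 4.41 against 13.95), and GDF15 (57.8 and 55.6 against 144) were higher in c5NC. Those 3 calls were lost when single libraries were left out, VEGFC without c3NC replicate 2 or either cKDmix library, MET without c3NC replicate 1 or either cKDmix library, and GDF15 with any 1 c3NC or cKDmix library left out (highest limma adjusted p 0.106, 0.0977 and 0.206).

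Of 28 tested TGF-beta and BMP pathway genes 5 were called higher in c3NC and 0 higher in c5NC, and their median difference was -0.05, against -0.05 for all genes. The ligand TGFB3 measured 9.22 and 7.43 FPKM against 2.44, the procollagen proteinase BMP1 90.6 and 75.6 against 21.5, and the activin subunit INHBB 1.95 and 1.77 against 0.07. The direction of INHBB was fixed by the entry rule. The ligand TGFB1 measured 34.7 and 33.4 against 41.4 FPKM, the receptor TGFBR2 92.2 and 97.7 against 100.87, and the feedback inhibitor SMAD7 8.53 and 6.27 against 6.23, none of them called. With any 1 c3NC or cKDmix library left out 0 members were called, and the highest limma adjusted p for TGFB3, BMP1 and INHBB were 0.127, 0.112 and 0.109.

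Of 28 tested immediate early genes, transcribed within minutes of a stimulus, 1 was called higher in c3NC and 5 higher in c5NC, with a median difference of -0.89. FOSL1, an AP-1 subunit, measured 8.63 and 8.32 FPKM in c3NC and 28.0 in c5NC (limma adjusted p = 0.00623), IER2 19.9 and 16.5 against 57.5, and the antiproliferative BTG2 44.6 and 51.0 against 135. NR4A1, an orphan nuclear receptor, was higher in c3NC at 22.9 and 36.4 against 7.96 FPKM. FOS measured 367 and 489 against 587 FPKM and EGR1 113 and 105 against 308, without a call; FOS was at 300 and 5.15 FPKM in the cRNA28250 replicates. The direction counts depend on the libraries in the fit: of genes higher in c5NC, 20 were called with the 3 control libraries alone, 0 without either c3NC library and 1 without either cKDmix library. FOSL1 lost its call without either c3NC library, IER2 and BTG2 with any 1 c3NC or cKDmix library left out, and NR4A1 without c3NC replicate 2 or either cKDmix library (highest limma adjusted p 0.0548, 0.0923, 0.114 and 0.136).

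Among 16 tested inflammatory genes 4 were called higher in c3NC and 2 higher in c5NC. Interleukin 6 (IL6) measured 13.8 and 12.3 FPKM in c3NC and 1.06 in c5NC, a log2 difference of 2.77 ± 0.28 (limma adjusted p = 0.00215). Complement factor B (CFB) measured 3.76 and 4.59 FPKM against 0.03. IL6 held under all 15 alternatives, while CFB met the entry rule through the c3NC libraries alone, which fixed its direction. The leukocyte adhesion receptor ICAM1 measured 49.0 and 54.4 against 17.8 FPKM, while interleukin 1 alpha (IL1A) measured 6.53 and 13.7 against 45.7 and the NF-kB inhibitor NFKBIA 94.6 and 103 against 210. These 3 calls were lost with any 1 c3NC or cKDmix library left out (highest limma adjusted p 0.09, 0.207 and 0.264). CXCL8, a neutrophil chemokine, measured 236 and 412 against 475 FPKM and was not called.

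Among the growth and housekeeping lists given here, calls fell only in that of glycolysis and hypoxia. By limma, none of 32 tested DNA replication genes, 33 mitosis genes, 74 ribosomal protein genes or 28 respiratory chain genes was called, with median differences of 0.17, 0.40, -0.13 and 0.05. At an unadjusted p under 0.05 there were 3, 1, 0 and 1 such genes. HJURP, a centromere histone chaperone, was higher in c5NC at 2.21 and 6.04 against 68.1 FPKM (limma adjusted p = 0.00437), apart from those mitosis genes; overlapping genes cannot be told apart here because strand use is not given. Of 29 tested glycolysis and hypoxia genes 2 were called higher in c3NC, VEGFA and the enolase ENO2 (24.04 and 19.9 against 6.67 FPKM), and 1 higher in c5NC, NDRG1 (96.9 and 105 against 343). GAPDH measured 4757 and 4794 against 3736 FPKM. ENO2 lost its call without c3NC replicate 1 and NDRG1 with any 1 c3NC or cKDmix library left out (highest limma adjusted p 0.0877 and 0.11).

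Among 31 tested HOX genes, which mark body position, 1 was called, a share below the 6.01% of all genes. It was HOXC4, higher in c5NC at 1.5 and 1.99 against 6.27 FPKM. Of 10 tested imprinted genes 2 were called higher in c5NC, DIO3 and NNAT (2.90 and 2.82 against 9.59 FPKM). Of 19 tested sterol synthesis genes 1 was called, a share near that of all genes, and it was NSDHL, higher in c5NC (7.90 and 8.43 against 19.2 FPKM). Of 16 tested p53 targets 2 were called, both higher in c5NC, GDF15 and SESN1 (3.00 and 2.67 against 9.92). HERC6, an interferon-induced ligase, was the 1 of 21 tested interferon genes called, a share near that of all genes. It was higher in c3NC at 4.80 and 5.17 against 0.95 FPKM, a direction fixed by the entry rule. Each of these calls except that of DIO3 was lost with any 1 c3NC or cKDmix library left out, with highest limma adjusted p between 0.124 and 0.238.

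Among 20 tested integrins and other adhesion receptors 1 was called higher in c3NC and 2 were called higher in c5NC. The collagen receptor subunit ITGA1 measured 8.98 and 11.9 FPKM in c3NC and 2.40 in c5NC. ITGA3, a laminin receptor subunit of epithelia, measured 14.4 and 28.5 FPKM in c3NC and 122 in c5NC, a log2 difference of -2.53 ± 0.41 (limma adjusted p = 0.0136). The other call higher in c5NC was SDC2, a heparan sulfate proteoglycan of the cell surface, at 3.29 and 2.74 against 7.69 FPKM. ITGA3 lost its call without c3NC replicate 1 or either cKDmix library, and ITGA1 and SDC2 with any 1 c3NC or cKDmix library left out (highest limma adjusted p 0.0626, 0.0936 and 0.237).

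**Figure D4:**
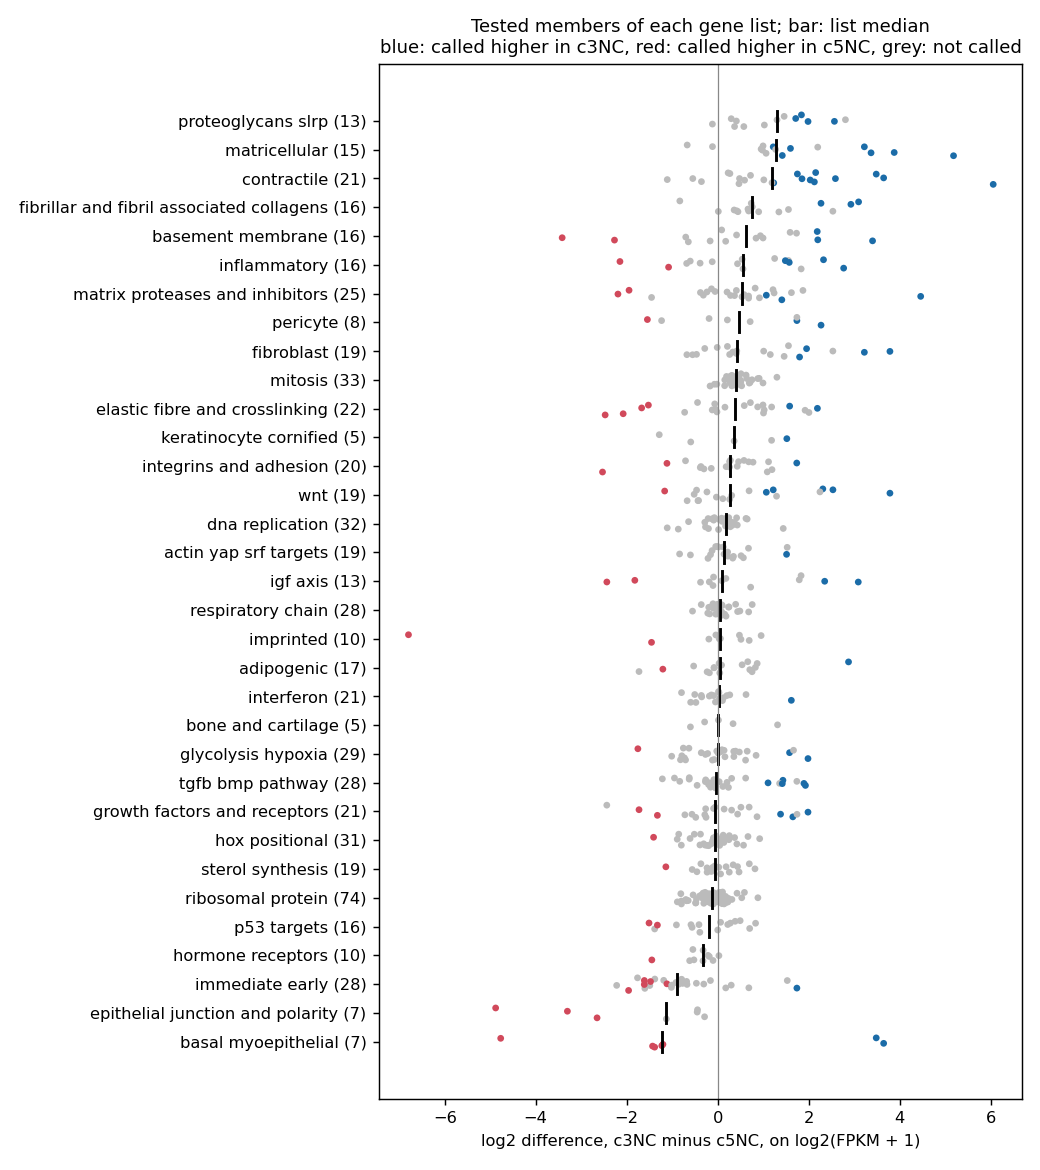
Difference in log2(FPKM + 1), c3NC minus c5NC, of each tested member (points; vertical scatter is for legibility) of the gene lists with at least 5 tested members, with a black bar at each list median, blue and red for genes called higher in c3NC and c5NC, and a grey line at 0. The proteoglycan, matricellular and contractile lists have medians of 1.30, 1.27 and 1.19, the basal and junction lists -1.23 and -1.13, and the replication, ribosomal and respiratory lists lie near 0.

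The largest single differences lay partly outside these groups. TMEM65, a mitochondrial inner membrane protein, measured 863 and 1050 FPKM in c3NC and 18.8 in c5NC, a log2 difference of 5.59 ± 0.26 (limma adjusted p = 0.000283). The 4 manipulated libraries lay between 15.6 and 32.1 FPKM for it, so the c3NC pair stood above all 5 others. VAT1L measured 51.8 and 28.3 FPKM against 0.16, and PTGS1, the constitutive cyclooxygenase of prostaglandin synthesis, 44.1 and 21.0 against 0.35. TMEM119, a membrane protein of osteoblasts and microglia, measured 51.6 and 34.7 against 0.95 FPKM, and PLAC9 26.9 and 24.5 against 0.76. VAT1L, PTGS1, TMEM119 and PLAC9 met the entry rule through the c3NC libraries alone, which fixed their direction. The hyaluronan-degrading protein CEMIP measured 42.1 and 63.6 against 1.69 FPKM (limma adjusted p = 0.0299), a call lost with any 1 c3NC or cKDmix library left out (highest limma adjusted p 0.126). TMEM65 held under all 15 alternatives.

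On the c5NC side the thyroid hormone inactivating deiodinase DIO3 measured 1.6 and 0.76 FPKM in c3NC and 237 in c5NC, a log2 difference of -6.80 ± 0.61 (limma adjusted p = 0.00144). The manipulated libraries lay between 9.38 and 33.8 FPKM for it, between the 2 controls. The secreted protein FGL1 measured 0.51 and 1.54 against 58.2 FPKM (limma adjusted p = 0.000864) and CNTFR, the ciliary neurotrophic factor receptor, 0.43 and 1.42 against 26.7 (limma adjusted p = 0.00124), and DIO3, FGL1 and CNTFR held under all 15 alternatives. PLTP, the phospholipid transfer protein, was singled out after its values were seen as an abundant gene among those called, at 294 and 211 FPKM in c3NC and 2682 in c5NC (limma adjusted p = 0.00636), and it was called under all 15 alternatives.

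Genes detected in only one control were counted without a test. Of all 17374 genes, 429 were under 1 FPKM in both c3NC libraries and at or above 1 in c5NC, of which 53 reached 5 FPKM and 14 reached 20. In 47 of the 53, c5NC was the highest of the 7 libraries. In reverse, 312 genes were under 1 FPKM in c5NC and at or above 1 in both c3NC libraries, of which 27 reached 5 FPKM and 6 reached 20 in both, and c5NC was the lowest of the 7 in all 27. Beside CLCA2, PKP1, EHF, PPARG and ADIRF, the highest named c5NC genes of this kind were the collagen galactosyltransferase COLGALT2 (0.21 and 0.23 against 94.4 FPKM), the complement receptor C5AR1 (0.59 and 0.93 against 58.1), the transporter SLCO3A1 (0.07 and 0.05 against 23.2), the secretin receptor SCTR (0.64 and 0.20 against 19.4) and MUSTN1 (0.00 and 0.10 against 18.9). SOX9, a factor of cartilage and of several epithelia, measured 0.05 and 0.06 FPKM in c3NC and 10.6 in c5NC.

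The levels of the called genes were also set beside the manipulated libraries, as a description. The genes were chosen for a difference between the controls, and 1 library is more easily at the end of a range than 2, so these shares do not tell which control stood apart. Of the 348 genes called higher in c3NC, c5NC was the lowest of the 7 libraries in 322 (92.5%), and both c3NC libraries were above all others in 81 (23.3%). Of the 309 called higher in c5NC, c5NC was the highest of the 7 in 272 (88.0%), and both c3NC libraries were below all others in 129 (41.7%). Over all 10928 tested genes c5NC was the lowest in 20.9% and the highest in 14.7%, and both c3NC libraries were above all others in 5.5% and below all others in 17.9%. The cKDmix mean lay nearer to c3NC than to c5NC for 266 of the 348 and 213 of the 309, and the cRNA28250 mean for 299 and 240. With 1 library, the c5NC condition and the properties of that library cannot be told apart.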

How the data were processed

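Total RNA from goat mammary gland cells in 3D culture was sequenced, per the labels' protocols. The authors deposited 1 table of FPKM per gene for 7 libraries; for the aligner, genome build, annotation, strandedness and software nothing is stated in the sources used here, and depth is unknown, so no counting intervals are given. FPKM are rounded to hundredths, so low values are coarse, and 2 gene entries share the same symbol. Gene identifiers were matched to RefSeq symbols (17007 of 17374; 367 did not match). Genes with an FPKM of at least 1 in 2 or more of the 3 control libraries were tested on log2(FPKM + 1), a scale that understates differences of low genes, with limma 3.58.1 in R 4.3.3. The fit had 1 mean per group over all 7 libraries and moderated variances with a mean trend; p-values were adjusted by Benjamini-Hochberg, with calls at 0.05. The procedure was tested on simulated data. There, 7% of 100 genes set 1 log2 unit apart and 71% of 100 genes set 2 apart were called. Of the 10728 genes left unchanged, 0.02% were called. Most 2-fold differences thus went uncalled in the simulation. It drew normal noise at the pooled SD of each gene, gave c5NC that same SD and set fewer genes apart than the data called. Its shares therefore need not hold for these libraries.

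The members and gene lists were chosen with earlier results of these data known; lists are therefore described by counts and medians beside all genes, with no test of a list. Named genes were the 10 called genes with the largest difference per direction with a mean of at least 2 FPKM in the higher group, up to 6 called members per direction of the contractile, epithelial, adipogenic and matrix lists and up to 3 of each other list by smallest p, the 10 highest c5NC genes among those under 1 FPKM in both c3NC libraries, and defining markers; loci without a gene name were left out. Genes beyond this rule were chosen after their values were seen. Alternatives were a pseudocount of 0.1, other filters or none, quantile normalization, median ratio scaling, no variance trend, the control libraries alone, a replicate block and each library left out. The sole c5NC library cannot be left out. Promoter motifs were not analysed here. Some chosen genes are not reported here.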

Additional observations from a re-analysis of the deposited data

How the results depend on the processing

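The test called 657 genes, 348 higher in c3NC and 309 higher in c5NC. Leaving out 1 library gave 168 to 1865 calls in all, 96 to 931 higher in c3NC and 72 to 937 higher in c5NC; the lowest total came without c3NC replicate 1 and the highest without cRNA28250 replicate 1. The 3 control libraries alone gave 2011 calls, 1014 and 997 in the 2 directions. Without a filter on low values 211 were higher in c3NC and 408 in c5NC, so 34.1% of calls were higher in c3NC instead of 53%. With 1 FPKM in at least 1 control library 505 were higher in c5NC and the share was 42.2%. Both settings admit genes present in c5NC alone, whose direction is then fixed. Pseudocount, normalization, scaling and variance trend left each count within 1.5 times. With the replicate number as a block 394 genes were called, 220 higher in c3NC and 174 in c5NC, of which 373 were shared with the fit without it. Deviations of same-numbered libraries correlated at 0.125 between c3NC and cKDmix, 0.296 between c3NC and cRNA28250 and -0.178 between cKDmix and cRNA28250, and c3NC and c5NC share only number 2, so the numbers were not taken to pair libraries. Of 102 called genes that the naming rule chose, 39 were called under all 15 alternatives and 0 changed direction under any; 56 to 58 lost their call without 1 c3NC or cKDmix library, 37 without a filter, 29 under the block, 13 with quantile normalization and at most 3 under each of the others. The 39 include genes that met the entry rule through the c3NC libraries alone, whose direction was fixed. With 1 c5NC library, its own variation was not measured.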
